A study of Mus musculus with 88 samples.

Results

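The 33 genes described here encode subunits of the glutamate and GABA receptors of the mouse cortex. They are 4 AMPA, 6 NMDA and 5 kainate receptor subunits, 1 delta receptor, 6 metabotropic glutamate receptors, 9 GABA-A subunits and 2 GABA-B subunits. They were picked by name, as rows of the deposited count table whose Ensembl identifier maps to the symbol, and are 33 of the 54532 genes in that table. All 33 passed the filter on low counts in every fit.

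The study sequenced polyA RNA from tissue punches of the cortex of C57BL/6 mice of both sexes, 8 to 9 weeks old, to follow traumatic brain injury. Injured mice received a controlled cortical impact, a piston strike on the exposed brain, over the right hemisphere through a 3 mm craniotomy (2 mm tip, 6.0 m/s, 100 ms, 1 mm deep) with buprenorphine at 0.05 mg/kg, and were perfused at 24 h or 72 h. Naive mice had no injury, and the right punch of a naive mouse is called ipsilateral below to match the injured side. From each animal 1 punch of 4 mm was taken on either side. Ipsilateral cortex was represented by 15 mice at 24 h, 14 at 72 h and 13 naive mice, and contralateral cortex by 15, 15 and 13. There was no operated group without impact, so the impact and the surgery with its analgesic cannot be told apart. In bulk tissue, fewer cells of a type and less RNA per cell cannot be told apart either.

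Glutamate is the main excitatory transmitter of the cortex. AMPA, NMDA and kainate receptors are ion channels assembled from 4 subunits each, and metabotropic receptors act through G proteins. GABA is the main inhibitory transmitter: GABA-A receptors are chloride channels made of 5 subunits, some at synapses and some outside them, and GABA-B receptors are obligate pairs of G protein-coupled subunits. After brain injury, receptor composition bears on excitotoxicity and on the balance of excitation and inhibition.

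Total counts of the 85 libraries used ran from 13.65 M to 26.36 M, with a median of 16.29 M (levels below are CPM, counts scaled to each library's TMM-adjusted total). The labels give 3 batches, A (naive and 24 h), B (all times) and C (72 h only). Batch was a term in each fit of 1 side, and there the 72 h estimates rest on the few batch B libraries at 72 h, 4 ipsilateral and 5 contralateral, since batch C holds no other time. Comparisons of the sides within an animal use all batches. Comparisons with naive mice within batch B rest on 4 naive libraries on each side. The ipsilateral ones include KF3 and KM3, described below. Both libraries of the female 72 h mouse LF3 were left out. Mitochondrial counts made up 7.798% of its contralateral and 10.478% of its ipsilateral library, against at most 6.735% in the libraries used. In its contralateral library 19 members lay below the range of the other 72 h mice and 7 above it, and in its ipsilateral library 17 and 2. The sex of the ipsilateral 72 h library PM1 differs between its own labels, and it was put in no group. It carried female transcripts, while the contralateral library of PM1 carried male ones. The ipsilateral library labelled female 72 h PF1 carried male transcripts and the contralateral PF1 library female ones, so the punches labelled PF1 do not match in sex. Whether the ipsilateral libraries PF1 and PM1 were exchanged was not tested. Library PF1 was kept as labelled, and counts without it stand beside the 72 h, side and sex comparisons. The naive batch B libraries KF3 and KM3 on the ipsilateral side, KF3 and KM2 on the contralateral side, the naive library CM1 and the 72 h library LM2 (both contralateral) stood apart by a trend of expression with GC content, with slopes of 0.651, 0.512, 0.354, 0.481, -0.733 and 0.485 against -0.385 to 0.26 in the other 79. AT-rich members such as Gria2, Gria3, Gabra2, Gabrb1 and Gabrb2 were low in KF3 and KM3, so values without these libraries or within a batch stand beside calls that they end or turn.

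In naive ipsilateral cortex, per kilobase of exon, the highest members were Gabbr1 (median 98.7 CPM per kb), Gabbr2 (66.4), Grin1 (54.8), Gria1 (48.7), Gria2 (47.7) and Grik5 (46.1). The lowest was Grm8 at 1.29 CPM per kb, followed by Grik1 at 1.85. Neighbours in that order were not separated: Gria1 ranged from 46.1 to 51.7 and Gria2 from 13.7 to 60.6 CPM per kb.

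In ipsilateral cortex the receptor genes were mostly lower after injury. At 24 h, 19 of 33 members were lower and 2 higher than in naive mice (edgeR quasi-likelihood test, adjusted p under 0.05), against 25.0% of all 19062 genes tested called lower and 25.8% called higher. At 72 h, 19 members were lower and 0 higher, against 22.6% of all genes lower and 25.7% higher, and 18 were lower without PF1. Gene counts by edgeR at an unadjusted p under 0.05 were 24 members at 24 h and 20 at 72 h. The share of all genes at that threshold is not given, so these counts cannot be set against it. The median log2 fold change of the members was -0.32 at 24 h and -0.49 at 72 h, while the medians of all genes tested were -6e-04 and -0.014. Both time points share the naive mice. By class, the lower members at 24 h and at 72 h numbered 3 and 2 of 4 AMPA, 5 and 6 of 6 NMDA, 1 and 1 of 5 kainate, 4 and 3 of 6 metabotropic, 4 and 4 of 9 GABA-A and 1 and 2 of 2 GABA-B genes, and the single delta gene at both times. The 2 higher members at 24 h were both kainate subunits, and 1 was left without the naive library EM3. Batch B alone called 0 higher and 11 lower at 24 h, with no share of all genes given for that fit.

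**Figure D1:**
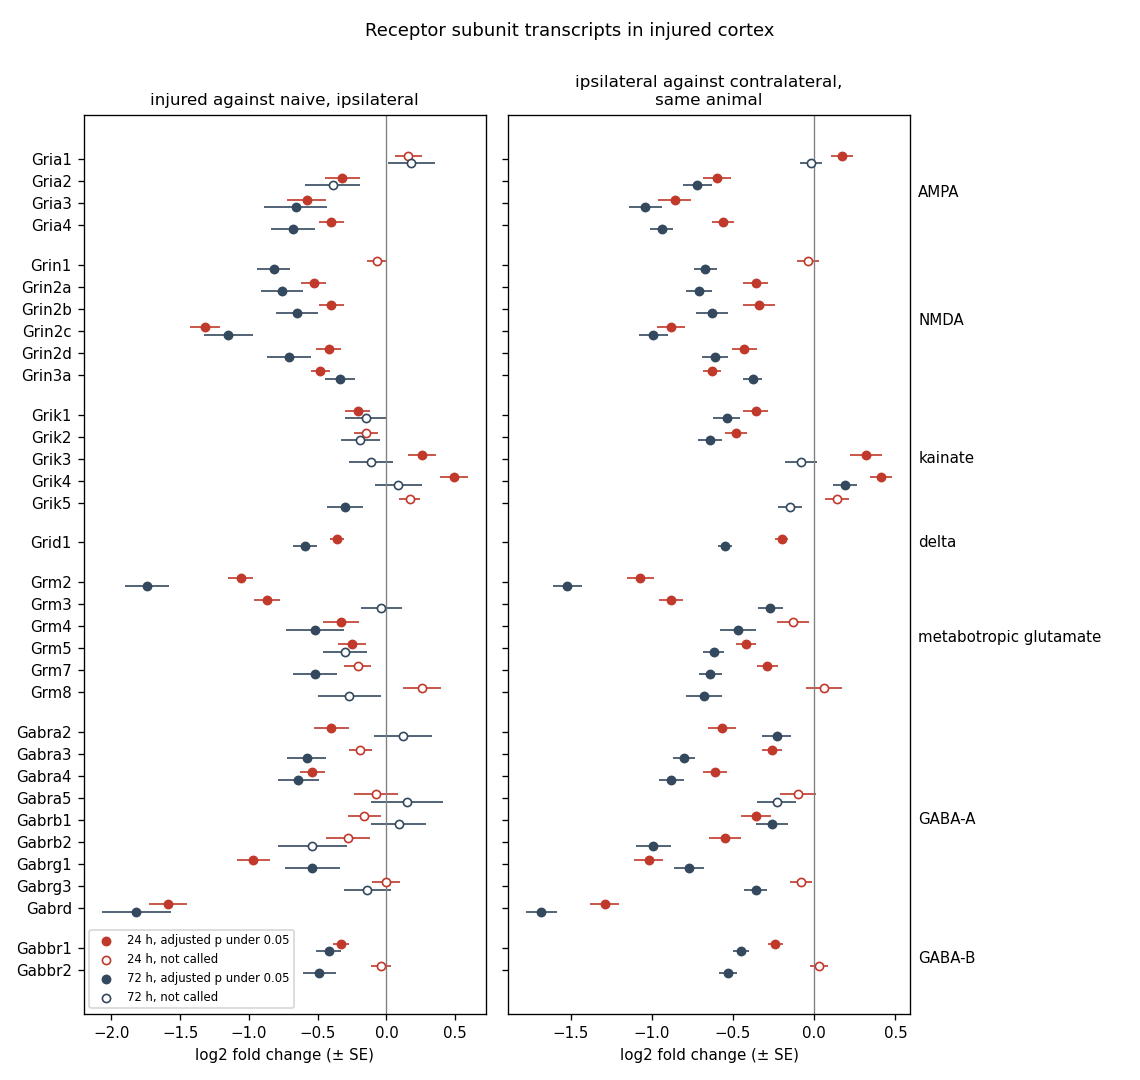
Log2 fold change of each of the 33 members, by class, in ipsilateral cortex at 24 h and at 72 h against naive mice (left) and on the ipsilateral against the contralateral side of the same animals (right). Points are filled where called, with standard errors as bars; on the left Gabrd, Grm2 and Grin2c lie farthest below 0 at both times, and Grik4 at 24 h is the farthest above.

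Groups did not overlap for 3 members at 24 h, with every injured library below every naive one: Grin2c, Grm2 and Gabrd. At 72 h there were 5, namely Grin1, Grin2c, Grid1, Grm2 and Gabrd. Among all 19062 genes, 2.42% were separated downward in this way at 24 h and 4.82% at 72 h.

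RefSeq (GRCm38.p6) holds a promoter for 23 of the 33 members. The 250 bases before the start are shown for Grm2 and Grin2c, which were lowest in fold change among members with an entry, for Grik4, which was higher at 24 h, and for Gabrg1, which was lower at both times. These 4 were chosen after their values were seen. The start is that of RefSeq and can differ from that of GENCODE M21. For Grm2 the bases after the start were found in no GENCODE transcript of the gene. The Grik4 window lies partly inside the GENCODE gene, whose 5′ end is at chr9:42944493. Capitals mark the GC box GGGCGG, searched on both strands, with overlapping matches joined. The windows, all on the minus strand and written in the direction of transcription, are Grm2 at chr9:106656110-106656359, Grin2c at chr11:115267244-115267493, Grik4 at chr9:42944372-42944621 and Gabrg1 at chr5:70842618-70842867.
Grm2: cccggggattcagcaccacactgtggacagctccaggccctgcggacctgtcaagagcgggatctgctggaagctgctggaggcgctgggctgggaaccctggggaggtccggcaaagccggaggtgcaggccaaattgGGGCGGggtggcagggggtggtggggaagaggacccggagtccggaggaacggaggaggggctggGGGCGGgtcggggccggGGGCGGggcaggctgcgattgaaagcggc
Grin2c: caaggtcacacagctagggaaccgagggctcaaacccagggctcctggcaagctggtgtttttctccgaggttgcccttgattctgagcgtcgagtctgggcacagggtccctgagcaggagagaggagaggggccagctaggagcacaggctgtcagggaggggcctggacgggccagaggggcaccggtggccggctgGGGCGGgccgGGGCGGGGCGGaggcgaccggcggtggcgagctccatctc
Grik4: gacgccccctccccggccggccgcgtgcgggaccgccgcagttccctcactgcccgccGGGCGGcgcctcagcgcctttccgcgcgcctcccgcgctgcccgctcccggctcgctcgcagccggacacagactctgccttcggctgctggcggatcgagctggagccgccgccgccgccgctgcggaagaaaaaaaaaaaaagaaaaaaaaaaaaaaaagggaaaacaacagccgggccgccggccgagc
Gabrg1: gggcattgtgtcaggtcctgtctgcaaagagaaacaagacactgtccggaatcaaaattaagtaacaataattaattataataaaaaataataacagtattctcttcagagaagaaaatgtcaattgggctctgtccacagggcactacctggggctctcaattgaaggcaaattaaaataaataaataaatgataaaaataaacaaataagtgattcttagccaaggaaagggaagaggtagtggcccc
The Grm2, Grin2c and Grik4 windows hold capitals and the Gabrg1 window holds none, so members that moved in opposite directions both had the box. It occurred in 12 of 23 member windows (52.2%) and in 10756 of 32851 windows of all genes (32.7%). Member windows were also richer in GC, with a median of 62.4% against 52.4%. The cAMP response element TGACGTCA and the AP-1 site TGANTCA were in 0 of the 23 windows, against 1.5% and 6.7% of all windows, and TATAAA was in 1 (4.3%), against 12.4%. Letters in a window are a description and say nothing of binding.

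AMPA receptors carry fast excitation, and Gria2 is the subunit that keeps most of them impermeable to calcium. Gria3 and Gria4 were lower at both times, Gria2 at 24 h, and Gria1 at neither. Gria4, a subunit prominent in interneurons, spanned 67.6 to 104 CPM at 24 h (median 90.4), against 63 to 157 CPM in naive mice (median 126), and spanned 50.3 to 89.7 CPM at 72 h (median 65.8). Its injured and naive ranges overlapped, and KF3 held the lowest naive value. The log2 change of Gria4 was -0.40 ± 0.094 (SE) at 24 h (edgeR adjusted p = 0.000384) and -0.68 ± 0.16 at 72 h (adjusted p = 0.000402). Gria3 spanned 131 to 184 CPM at 24 h and 89.1 to 190 CPM at 72 h, against 67.8 to 334 CPM in naive mice, and the log2 changes were -0.58 ± 0.14 and -0.66 ± 0.23 (edgeR adjusted p = 0.000675 and 0.0171). Gria2 had a log2 change of -0.32 ± 0.13 at 24 h (edgeR adjusted p = 0.0331) and -0.39 ± 0.20 at 72 h (adjusted p = 0.116). The 24 h call for Gria2 was lost in 14 of the 42 fits that leave out 1 library, and the 72 h call for Gria3 without LM2. The 3 AMPA calls at 24 h came from batch A: there Gria2, Gria3 and Gria4 had log2 changes of -0.65, -0.93 and -0.58, all called, while in batch B, where KF3 and KM3 are naive, they had 0.21, -0.04 and -0.13, none called.

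Gria1, the subunit most studied in synaptic plasticity, was spread out after injury more than shifted. It spanned 257 to 491 CPM at 24 h and 198 to 470 CPM at 72 h, against 279 to 312 CPM in naive mice. Of the injured libraries, 4 at 24 h and 6 at 72 h were above the highest naive one, and 2 and 5 were below the lowest. The log2 changes were 0.16 ± 0.10 and 0.18 ± 0.17, with edgeR adjusted p = 0.209 and 0.379. Markers of neighbouring brain regions (such as the hippocampus) were also higher in injured punches: 9 of 12 at 24 h and 8 of 12 at 72 h. Of all genes, 25.8% and 25.7% were called higher at these times. The summed levels of these markers were 506 to 892 CPM and 370 to 775 CPM, against 281 to 376 CPM in naive mice. Their part in the Gria1 values was not tested.

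NMDA receptors are coincidence detectors and the main route of calcium entry in excitotoxicity. Grin1 is the subunit all of them need. Grin2a to Grin2d set kinetics, and Grin3a lowers calcium permeability. Grin2c was the most reduced. It spanned 12.6 to 31.6 CPM at 24 h (median 24.9), against 43.7 to 69.1 CPM in naive mice (median 55.4), and 17.4 to 40.2 CPM at 72 h (median 26.0). No injured library reached the naive range. Its log2 change was -1.32 ± 0.11 at 24 h, a 2.49-fold lower level (edgeR adjusted p = 2.61e-13), and -1.15 ± 0.18 at 72 h (adjusted p = 1.78e-06). Within batches A and B the 24 h change was -1.22 and -1.43, and within batch B the 72 h change was -1.21, each called.

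Grin1 differed between the times. It spanned 360 to 599 CPM at 24 h (median 515), against 393 to 668 CPM in naive mice (median 532), which overlap almost entirely, and the log2 change was -0.071 ± 0.072 (edgeR adjusted p = 0.432). At 72 h it spanned 222 to 361 CPM (median 321), below every naive library, with a log2 change of -0.82 ± 0.12 (edgeR adjusted p = 4.78e-07). The change was -0.96 within batch B. At 24 h the batches differed in sign, with 0.10 in batch A (not called) and -0.31 in batch B (called).

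Grin2a and Grin2b, the main partners of Grin1 in the forebrain, were both lower at both times. Grin2a spanned 126 to 236 CPM at 24 h and 85.8 to 173 CPM at 72 h, against 138 to 330 CPM in naive mice, with log2 changes of -0.53 ± 0.092 and -0.76 ± 0.15 (edgeR adjusted p = 5.77e-06 and 7.48e-05). Grin2b spanned 261 to 609 CPM at 24 h and 181 to 352 CPM at 72 h, against 239 to 881 CPM in naive mice, with changes of -0.40 ± 0.09 and -0.65 ± 0.15 (adjusted p = 0.000245 and 0.000424). Both overlapped with naive mice. In batch B alone the 24 h changes of -0.29 and -0.11 were not called. Grin2d, found mostly in interneurons in adult cortex, had a log2 change of -0.42 and -0.71 at 24 h and 72 h, both called. Grin3a had a log2 change of -0.48 ± 0.067 at 24 h (edgeR adjusted p = 1.11e-07) and -0.34 ± 0.11 at 72 h (adjusted p = 0.0097), the second call being lost without LM2.

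Kainate receptors modulate release and excitability. Grik1, Grik2 and Grik3 form channels on their own, and Grik4 and Grik5 are high-affinity partners. This was the class with genes that rose. Grik4 spanned 25.9 to 47.7 CPM at 24 h (median 32.8), against 13.8 to 29.4 CPM in naive mice (median 21.5), and 20.7 to 38.3 CPM at 72 h (median 24.3). The ranges overlapped at both times. The log2 change was 0.49 ± 0.10 at 24 h, a 1.4-fold higher level (edgeR adjusted p = 0.000112), and 0.087 ± 0.17 at 72 h (adjusted p = 0.693). It was 0.60 in batch A (called) and 0.31 in batch B (not called). Grik3 had a log2 change of 0.26 ± 0.10 at 24 h (edgeR adjusted p = 0.027) and -0.11 ± 0.16 at 72 h (adjusted p = 0.602), with 92.9 to 156 CPM at 24 h, against 68.8 to 149 CPM in naive mice. Grik5 spanned 195 to 278 CPM at 72 h, inside the 150 to 352 CPM of naive mice. Its log2 change was 0.17 ± 0.077 at 24 h (edgeR adjusted p = 0.0567) and -0.30 ± 0.13 at 72 h (adjusted p = 0.0475). The 72 h call for Grik5 was lost in 27 of the fits that leave out 1 library and with each library's GC slope as a covariate (-0.04). Grik1 was lower at 24 h with a log2 change of -0.21 ± 0.089 (edgeR adjusted p = 0.0473), a call lost in 34 of 42 such fits, and Grik2 was called at neither time.

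Grid1, the delta receptor present in forebrain, acts as a synaptic organiser and binds no glutamate. It was 44.7 to 59.2 CPM at 24 h (median 51.8), against 52.6 to 73.4 CPM in naive mice (median 64.1), and 34.3 to 50.7 CPM at 72 h (median 43.9). The ranges met at 24 h and were separate at 72 h. The log2 changes were -0.36 ± 0.052 and -0.59 ± 0.086 (edgeR adjusted p = 2.16e-07 and 2.64e-07). In batches A and B at 24 h they were -0.35 and -0.36, and in batch B at 72 h -0.58.

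Among metabotropic glutamate receptors, Grm2 and Grm3 form a group that inhibits cAMP production and presynaptic release, though not the only such receptors. Grm2, mostly neuronal, spanned 29.6 to 57.1 CPM at 24 h (median 39.9), against 65.7 to 112 CPM in naive mice (median 76.8), and 18.4 to 34.9 CPM at 72 h (median 27.0). Every injured library was below every naive one. Its log2 change was -1.06 ± 0.093 at 24 h, 2.09-fold lower (edgeR adjusted p = 1.52e-12), and -1.74 ± 0.16 at 72 h, 3.35-fold lower (adjusted p = 1.21e-11). Batches A and B gave -0.97 and -1.20 at 24 h, and batch B gave -1.82 at 72 h.

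Grm3, made by astrocytes as well as neurons, differed from Grm2 in its course. It spanned 26.4 to 45 CPM at 24 h (median 37.8), against 43.5 to 90.7 CPM in naive mice (median 74.7), and 34.1 to 69.7 CPM at 72 h (median 58.4). The ranges at 24 h overlapped narrowly and those at 72 h widely. The log2 change was -0.87 ± 0.094 at 24 h, 1.83-fold lower (edgeR adjusted p = 3.2e-10), and -0.038 ± 0.15 at 72 h (adjusted p = 0.857), and it was 0.83 ± 0.13 for 72 h against 24 h (adjusted p = 5.84e-06). Within batch B that last difference was 0.77, called. The side difference of Grm3 at 72 h relative to that of naive mice was -0.23 ± 0.11 (edgeR adjusted p = 0.0805). Naive ipsilateral libraries also differed by batch, with a mean log2 difference of -0.51 for batch B minus batch A. Among all genes, 25.0% were lower and 25.8% higher at 24 h, and 22.6% and 25.7% at 72 h. Of 10 astrocyte markers, 8 were lower and 1 higher at 24 h and 3 were lower and 3 higher at 72 h. The summed levels of these markers were 2637 to 4574 CPM at 24 h and 2418 to 4636 CPM at 72 h, against 4131 to 7320 CPM in naive mice. Their part in the course of Grm3, or in that of Grin2c and Gabrg1, which astrocytes also make, was not tested.

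Of the other metabotropic members, Grm5, the postsynaptic receptor coupled to calcium release, had a log2 change of -0.25 ± 0.10 at 24 h (edgeR adjusted p = 0.0271) and -0.30 ± 0.16 at 72 h (adjusted p = 0.11). The 24 h change was -0.46 in batch A (called) and 0.08 in batch B (not called), and its call was lost in 5 of the 42 fits that leave out 1 library. Grm7, a presynaptic receptor, had a log2 change of -0.21 at 24 h (not called) and -0.52 ± 0.16 at 72 h (edgeR adjusted p = 0.0078), a call lost without LM2 or PF2. Grm4 was lower at both times (-0.33 ± 0.13 and -0.52 ± 0.21, edgeR adjusted p = 0.0294 and 0.0372), and both calls were lost with the library GC slope as a covariate and in 6 and 9 of the fits that leave out 1 library. Grm8 was called at neither time.

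GABA-A receptors with Gabrd lie outside synapses and carry tonic inhibition. Gabrd was the most reduced of the 33 members at both times. It spanned 23.3 to 51.5 CPM at 24 h (median 37.9), against 94 to 135 CPM in naive mice (median 104), and 17.5 to 50.8 CPM at 72 h (median 32.0). The lowest naive library was well above the highest injured one. The log2 change was -1.59 ± 0.14 at 24 h, 3.02-fold lower (edgeR adjusted p = 2.11e-12), and -1.82 ± 0.25 at 72 h, 3.54-fold lower (adjusted p = 7.18e-08). Batches A and B gave -1.56 and -1.67 at 24 h, and batch B gave -1.86 at 72 h. Gabra4, the usual alpha partner of Gabrd in forebrain, had a log2 change of -0.54 ± 0.092 and -0.64 ± 0.15 (edgeR adjusted p = 3.57e-06 and 0.000585). It overlaps Gabrb1 on the opposite strand at the 5′ ends, and the counting is not stated to use strand, so reads there cannot be assigned and both genes' values are uncertain.

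Gabrg1, a gamma subunit also made by astrocytes, spanned 6.91 to 12.1 CPM at 24 h (median 9.74), against 7.43 to 23.9 CPM in naive mice (median 22.1), and 6.56 to 14.8 CPM at 72 h (median 11.0). Naive libraries KF3 and KM3 held the low end of the naive range. The log2 change was -0.97 ± 0.12 at 24 h (edgeR adjusted p = 8.33e-09) and -0.54 ± 0.20 at 72 h (adjusted p = 0.023). Batches A and B gave -1.15 and -0.69 at 24 h, both called, and batch B gave -0.34 at 72 h, not called. The 72 h call was lost without PF1 (-0.46, edgeR adjusted p = 0.0865) and without KF2, KM2, PF2 or PM2. Gabra2, a synaptic alpha subunit, was lower at 24 h (-0.40 ± 0.13, edgeR adjusted p = 0.0109) and had 0.12 ± 0.21 at 72 h (adjusted p = 0.668). The 24 h change was -0.72 in batch A (called), 0.11 in batch B (not called) and -0.61 without KF3 and KM3 (called). Gabra3, another alpha subunit, had a log2 change of -0.19 at 24 h (not called) and -0.58 ± 0.14 at 72 h (edgeR adjusted p = 0.000773). Gabra5, which supplies extrasynaptic receptors, Gabrb1, Gabrb2 and Gabrg3 were called at neither time against naive mice, with all batches fitted. In batch A alone at 24 h, Gabrb1 and Gabrb2 had log2 changes of -0.41 and -0.66, both called, against 0.23 and 0.32 in batch B, neither called. Without KF3 and KM3 the changes were -0.37 and -0.53 at 24 h, both called, and -0.21 (not called) and -0.90 (called) at 72 h. That choice leaves out only naive libraries with high GC slopes, while naive EM3 and GF2, with slopes of -0.385 and -0.318, stay in. The naive ipsilateral libraries then left in batch B are KF2 and KM2.

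GABA-B receptors need both subunits, Gabbr1 to bind GABA and Gabbr2 to signal. Gabbr1 spanned 567 to 729 CPM at 24 h (median 619), against 565 to 1000 CPM in naive mice (median 766), and 457 to 688 CPM at 72 h (median 632). These ranges overlapped. Its log2 change was -0.33 ± 0.056 at 24 h (edgeR adjusted p = 5.55e-06) and -0.42 ± 0.093 at 72 h (adjusted p = 0.000229). Gabbr2 spanned 351 to 494 CPM at 24 h (median 451), against 369 to 522 CPM in naive mice (median 444), and 211 to 394 CPM at 72 h (median 327). Its change was -0.04 ± 0.075 at 24 h (edgeR adjusted p = 0.685) and -0.49 ± 0.12 at 72 h (adjusted p = 0.00115).

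**Figure D2:**
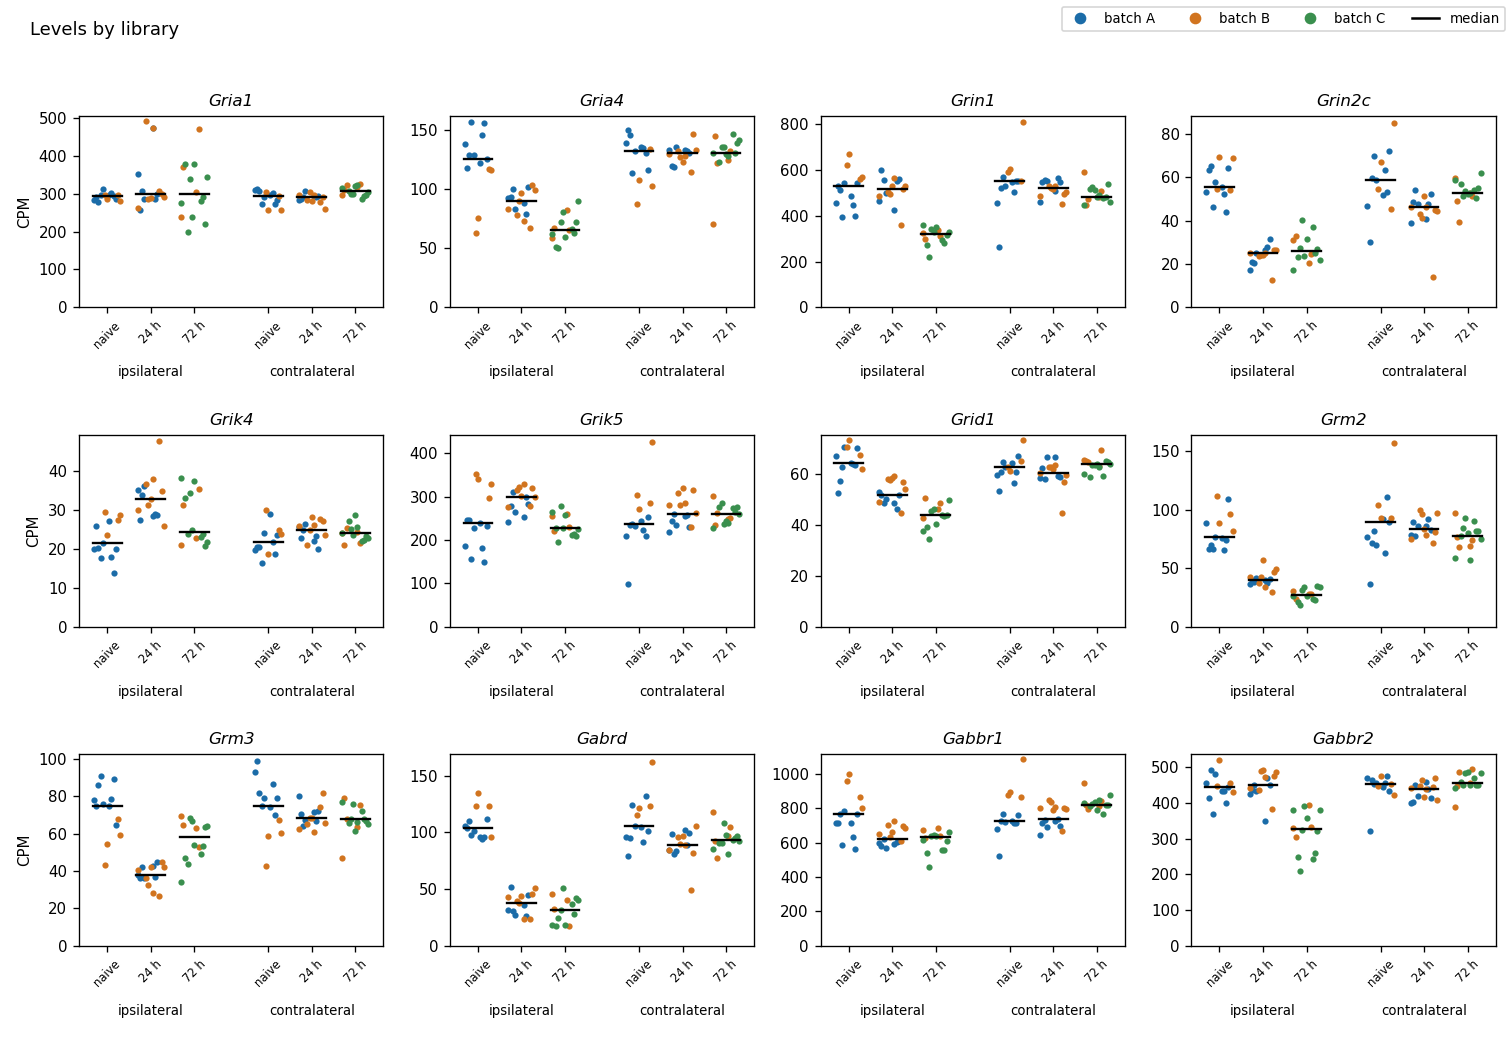
Level in CPM of 12 members in every library used (points, coloured by batch), by side and by group (naive, 24 h, 72 h), with the median of each group as a black line. Gabrd, Grm2 and Grin2c are low in all ipsilateral injured libraries and Gria1 spreads in both directions, while contralateral groups overlap in every panel.

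Set directly against 24 h, ipsilateral cortex at 72 h had 7 lower members and 2 higher ones, against 14.7% of all genes lower and 18.5% higher (edgeR adjusted p under 0.05). The lower ones were Grin1 (-0.75 ± 0.12), Grm2 (-0.68 ± 0.15), Grik5 (-0.47 ± 0.12), Gabbr2 (-0.45 ± 0.12), Grik4 (-0.40 ± 0.16), Gabra3 (-0.39 ± 0.13) and Grid1 (-0.24 ± 0.08). The higher ones were Grm3 (0.83 ± 0.13) and Gabra2 (0.53 ± 0.19), the second of which was 0.38 and not called in batch B alone. The Grik4 call was lost in 33 of the fits that leave out 1 library, that of Grid1 without LM2 or PF1, that of Gabra3 without LM2, PF2 or PM2 and that of Gabra2 without PF2, PM2 or QF1. Without PF1 there were again 7 lower members, with Grm7 (-0.43, edgeR adjusted p = 0.0458) and Grm8 (-0.66, adjusted p = 0.0305) called in place of Grid1 (-0.22, adjusted p = 0.0566) and Grik4 (-0.37, adjusted p = 0.112). There were then 3 higher members, Gabrg1 (0.52, edgeR adjusted p = 0.0423) being the added one. There were 4 lower members without LM2, and 1 higher member without PF2, PM2 or QF1. Without the batch term 20 members were lower. The median change over all members was -0.20.

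Comparing the 2 punches of each animal removes differences between animals and batches. It does not remove a GC trend that differs between the punches. The slopes were -0.733 contralateral and 0.001 ipsilateral in naive CM1, and 0.485 and 0.106 in the 72 h mouse LM2. In 15 mice at 24 h, 23 members were lower and 3 higher on the ipsilateral side than on the contralateral side, against 25.6% and 26.0% of all 19902 genes (edgeR with animal as a block, adjusted p under 0.05). In the 14 pairs labelled as 72 h mice, of which PF1 is mismatched in sex, 28 were lower and 1 higher, against 30.6% and 33.6% of all genes. Without PF1 the counts were again 28 lower and 1 higher at 72 h. In 13 naive mice 0 members differed between the sides by edgeR, and 0 at an unadjusted p under 0.05. Within single animals, 24 to 29 members were lower on the ipsilateral side at 24 h (median 27) and 24 to 33 at 72 h (median 30), against 10 to 22 in naive mice (median 14). The share of all genes lower in the same animals was not counted, so these counts do not set the members apart from other genes. The side difference relative to that of naive mice was called lower for 20 members and higher for 1 at 24 h, against 17.0% and 18.6% of all genes. At 72 h it was called lower for 26 and higher for 0, against 23.8% and 27.8%, with the same counts without PF1.

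**Figure D3:**
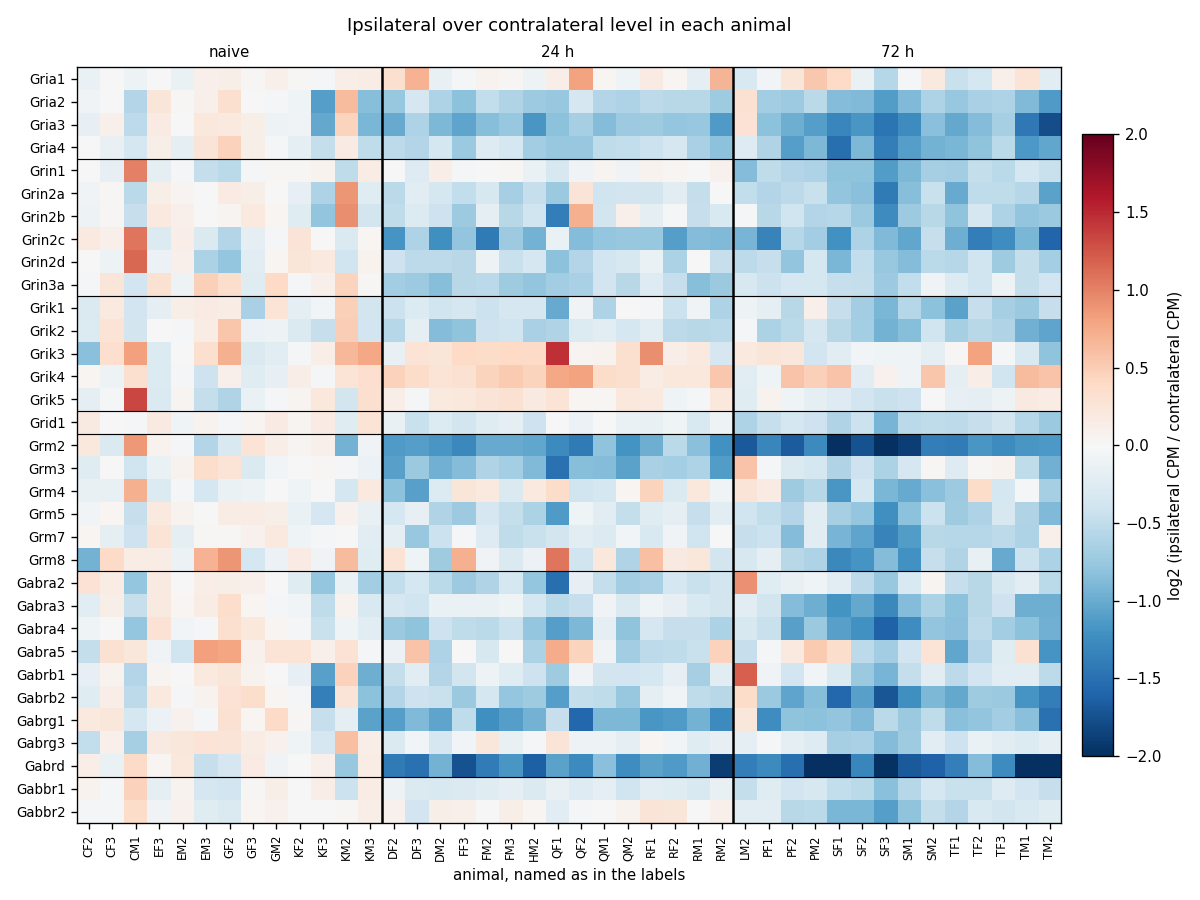
Log2 ratio of the ipsilateral to the contralateral level for each member (rows, by class) in each animal (columns, by group). Injured animals are mostly below 0 for Gabrd, Grm2, Grin2c and Gabrg1 and naive animals scatter around 0.

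Gabrd was lower on the injured side in 15 of 15 mice at 24 h, with ratios from -1.90 to -0.84 (median -1.24), against -0.76 to 0.38 in naive mice (median 0.04), and in 14 of 14 at 72 h, from -2.41 to -0.87 (median -1.56). Grm2 was lower in 15 of 15 and 14 of 14 mice, with medians of -1.10 and -1.39, as were Grin2c (-0.87 and -0.96), Gria4 (-0.52 and -0.93) and Gabbr1 (-0.25 and -0.45). For these members no injured animal had the ipsilateral side higher. The model estimates for the side were -1.29 ± 0.089 and -1.68 ± 0.094 for Gabrd (edgeR adjusted p = 1.05e-16 and 3.05e-20), and -1.07 ± 0.085 and -1.52 ± 0.091 for Grm2 (adjusted p = 1.26e-14 and 3.62e-19).

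Several members that were uncertain against naive mice were called between the sides. Gria2 was lower on the injured side, with a log2 difference of -0.60 ± 0.085 at 24 h and -0.72 ± 0.09 at 72 h (edgeR adjusted p = 6.63e-08 and 1.86e-09). Those of Gria3 were -0.86 and -1.04, those of Gabrb2 -0.55 and -0.99, those of Grik2 -0.48 and -0.64 and those of Grik1 -0.36 and -0.54, all called. The contralateral side at 24 h was itself higher than in naive mice for Grik2 (0.29 ± 0.073, edgeR adjusted p = 0.00947). Gria2, Gria3, Gabrb2 and Grik1 had 0.21, 0.19, 0.17 and 0.1 there, none called. Grik4 was higher on the injured side in 15 of 15 mice at 24 h (0.41 ± 0.069, edgeR adjusted p = 1.65e-06) and in 8 of 14 at 72 h (0.19 ± 0.072, adjusted p = 0.0205). Grik3 was higher at 24 h (0.32 ± 0.10, edgeR adjusted p = 0.00584), and so was Gria1 (0.17 ± 0.067, adjusted p = 0.0334), with 10 of 15 mice above 0. Grin1 and Gabbr2 had -0.037 and 0.029 at 24 h (edgeR adjusted p = 0.666 and 0.681) and were lower at 72 h, with -0.67 and -0.53 (adjusted p = 9.24e-12 and 3.06e-11).

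Contralateral cortex showed few differences from naive mice. At 24 h, 2 members were higher and 2 lower, against 2.39% and 4.07% of all 18429 genes (edgeR adjusted p under 0.05). By edgeR 10 members were at an unadjusted p under 0.05, with no share of all genes given at that threshold. Grin3a spanned 28.6 to 43.0 CPM, against 25.4 to 39.7 CPM in naive mice, and Grik2 48.1 to 74.1 CPM, against 31.9 to 68.2 CPM. Their log2 changes were 0.30 ± 0.066 and 0.29 ± 0.073 (edgeR adjusted p = 0.00272 and 0.00947). Gabrd spanned 48.9 to 106 CPM, against 79.3 to 162 CPM in naive mice (-0.35 ± 0.084, adjusted p = 0.00627), and Grin2c 13.8 to 54.1 CPM, against 30.1 to 84.7 CPM (-0.42 ± 0.12, adjusted p = 0.0225). All 4 ranges overlapped. The lowest contralateral Gabrd and Grin2c values at 24 h were both in the mouse QF1, whose contralateral markers of neighbouring regions summed to 684 CPM. Within batch A no member of these 4 was called, and within batch B only Gabrd was (-0.58, edgeR adjusted p = 0.048). The Grin2c call was lost without naive KM2 or KM3. Members called lower numbered 5 without naive CM1 and 1 without KM3. At 72 h 0 members were called in either direction by edgeR, against 0.0922% of all genes higher and 0% lower. By the same test 5 members were at an unadjusted p under 0.05, again with no share of all genes given.

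Ratios of partner subunits compare composition within a library (mean log2 ratio of counts, 100000-resample two-sided permutation test, Benjamini-Hochberg adjustment over 12 ratios). The test shuffled libraries across batches, so it does not separate group from batch. Within a batch all permutations were used, and p was adjusted over the ratios tested there. Gabbr2 over Gabbr1 was -0.51 ± 0.13 (SD, n = 15) at 24 h, against -0.76 ± 0.17 in naive mice (n = 13), a difference of 0.24 (adjusted permutation p = 0.0036), with 0.19 and 0.42 within batches A and B. At 72 h the ratio was -0.95 ± 0.16 (n = 14), a difference of -0.19 from naive mice (adjusted permutation p = 0.0194), which was 0.01 within batch B. Gria1 over Gria2 was -0.70 ± 0.29 at 24 h, against -1.17 ± 0.63 in naive mice, a difference of 0.47 (adjusted permutation p = 0.0343). It was 0.76 within batch A (adjusted permutation p = 0.00105) and -0.19 within batch B, so it did not hold in both. At 72 h the difference was 0.59 (adjusted permutation p = 0.0194) and 0.07 within batch B. Grin2b over Grin2a, the ratio that falls as cortex matures, was 1.24 ± 0.32 at 24 h, against 1.23 ± 0.30 in naive mice (adjusted permutation p = 0.973). This ratio differed between batches, with 1.52 at 24 h and 1.42 in naive mice in batch A and 1.00 and 0.81 in batch B. The differences within batches were 0.10 (adjusted permutation p = 0.182) and 0.19 (adjusted permutation p = 0.254). On the contralateral side at 72 h it was 0.94 ± 0.13, against 1.24 ± 0.27 in naive mice, a difference of -0.30 (adjusted permutation p = 0.0066) that was -0.06 within batch B.

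**Figure D4:**
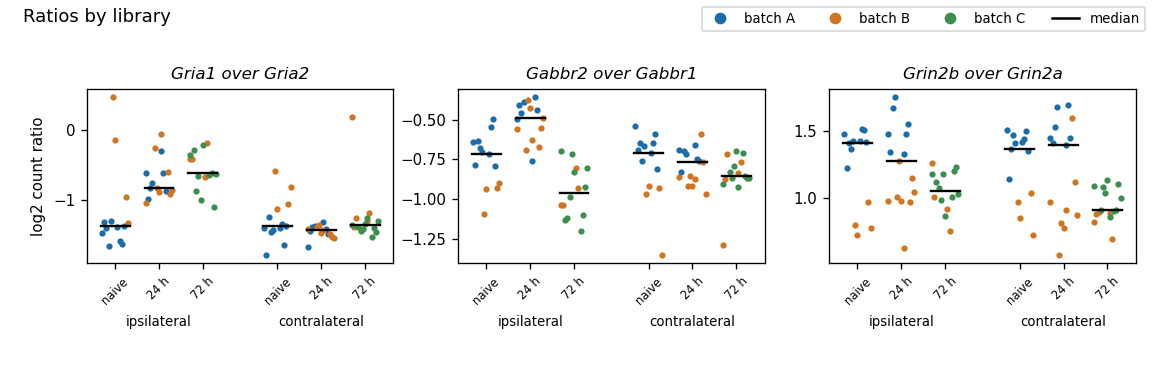
Log2 count ratio of Gria1 to Gria2, Gabbr2 to Gabbr1 and Grin2b to Grin2a in every library used (points, coloured by batch), by side and group, with group medians as black lines. With batches pooled, ipsilateral Gabbr2 over Gabbr1 is shifted up at 24 h and down at 72 h from naive mice. Within batch B the 72 h and naive values of that ratio overlap. Gria1 over Gria2 is widely spread in naive mice.

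Members were called in both sexes. In ipsilateral cortex at 24 h, 14 members were lower and 2 higher in females, against 18.0% and 19.5% of all genes (edgeR adjusted p under 0.05), and 13 and 1 in males, against 18.1% and 19.2%. At 72 h, 16 members were lower and 0 higher in females, against 19.6% and 22.9% of all genes, and 15 and 0 in males, against 19.0% and 22.3%. The female 72 h group holds PF1, whose ipsilateral library carried male transcripts, and without it the counts at 72 h were 16 lower and 0 higher in either sex. The interaction of sex and injury called 0 members at either time by edgeR, with 0 at an unadjusted p under 0.05 at 24 h and 1 at 72 h, which became 0 without PF1. In naive mice females and males differed in 0 members, also 0 unadjusted. These tests do not show that the sexes respond alike.

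Genes that work with the receptors were mostly lower too. Among all 19062 genes of the ipsilateral fit, 25.0% were called lower and 25.8% higher at 24 h, and 22.6% and 25.7% at 72 h. Among 14 AMPA and kainate auxiliary subunits, 8 were lower and 2 higher at both times, with Cacng3 at -1.25 ± 0.10 and -1.51 ± 0.17 and Cacng5 at 2.41 ± 0.12 and 2.73 ± 0.17 at 24 h and 72 h (edgeR, log2, all called). Of 15 scaffolds of glutamate receptors, 11 were lower and 2 higher at 24 h, and 12 and 1 at 72 h. Of 9 tested genes for GABA receptor scaffolds and auxiliary subunits, 5 were lower and 1 higher at 24 h, and 6 and 2 at 72 h. Of 8 genes of GABA synthesis, transport and chloride balance, 5 were lower at 24 h and 6 at 72 h, including the neuronal chloride exporter Slc12a5 at -0.74 and -1.05. Of 7 genes of glutamate synthesis and transport, 6 and 5 were lower, including the astrocyte transporter Slc1a2 at -0.81 and -0.94.

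Cell type markers moved in the same samples. The shares of all genes called were 25.0% lower and 25.8% higher at 24 h, and 22.6% and 25.7% at 72 h. Of 12 pan-neuronal markers, 3 were lower and 1 higher at 24 h and 9 lower at 72 h, with medians of -0.085 and -0.40 beside -0.32 and -0.49 for the receptor members. Excitatory neuron markers were lower for 4 of 10 (1 higher) and 7 of 10, and inhibitory neuron markers for 8 and 9 of 10. Summed inhibitory markers were 720 to 1071 CPM at 24 h and 386 to 860 CPM at 72 h, against 1100 to 1345 CPM in naive mice. Microglia and macrophage markers were higher for 8 of 12 (3 lower) at 24 h and 12 of 12 at 72 h, summing to 1262 to 2363 CPM at 72 h, against 275 to 393 CPM in naive mice. No marker on these lists was at 0 in a group. The part of such shifts in the receptor values was not tested.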

How the data were processed

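The deposited file is a table of raw counts per Ensembl gene for 88 libraries, made by the authors. The submitters' processing notes name the aligner HISAT2 2.0.5 and the genome build mm10. No source used here gives the counter, its annotation or whether it used strand. The 33 members and all gene lists were chosen with earlier results of these data known, so no list is independent support. From the deposited counts, genes were filtered with filterByExpr, scaled by TMM and tested with the quasi-likelihood F test of edgeR 4.0.16 (R 4.3.3, limma 3.58.1), with Benjamini-Hochberg adjustment over all genes tested and a threshold of 0.05. The ipsilateral fit held 42 libraries and 19062 genes, the contralateral fit 43 libraries and 18429 genes, each with group and batch terms and contrasts averaged over the sexes. The comparison of sides held 84 libraries of 42 animals and 19902 genes, with animal as a block, since the labels give both punches to 1 mouse; PF1, whose libraries differ in sex transcripts, was also left out in turn. Within a side, samples are separate mice. DESeq2 1.42.0 was an alternative. Members described in full include those with the smallest adjusted p of their class. Others described in full, such as Gria1 and Gabbr2, did not have the smallest. Ratios used counts plus 0.5. Lengths and overlaps come from GENCODE M21 (GRCm38). No pair of libraries of a group agreed within sampling noise, the closest differing by a chi-square of 2.64 per gene. The fit was tested on simulated data with 19062 genes: for ipsilateral 24 h against naive it recovered 58.2% of 1.5-fold, 77.6% of 2-fold and 100% of 4-fold changes, and for 72 h 35.8%, 64.2% and 93.9%. False calls made up 5.99% of all calls at 24 h and 4.44% at 72 h. Few genes were changed in the simulation, and it held no batch effect or GC trend, so these shares need not hold for the real data.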

Additional observations from a re-analysis of the deposited data

Results flagged for a closer look

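Of 396 groups of 1 member, sex, side and time, 58 (14.65%) had a library far from the rest of its group, where chance gives about 1 in 20 groups. Most lay in the libraries set apart by GC slope. In the 72 h male contralateral library of LM2, the low values were Gria2 259, Gria3 88.1, Gria4 70.3, Grin2a 134, Grik2 28.9, Grm3 47.1, Grm5 127, Grm8 7.56, Gabra2 51, Gabra3 83.3, Gabrb1 40.3, Gabrb2 48.5, Gabrg1 12.6 and Gabrg3 20.8 CPM and the high value was Gabbr1 945 CPM. In the naive female ipsilateral library of KF3, the low values were Gria2 213, Gria3 67.8, Gria4 63, Gabra2 36.4, Gabra3 78.1, Gabra4 81.4, Gabrb1 35.9, Gabrb2 36.2 and Gabrg1 7.43 CPM. In the naive male ipsilateral library of KM3, the low values were Gria2 314, Gria3 107, Grik1 8.19, Gabrb1 55.5 and Gabrg1 9.58 CPM. In the naive female contralateral library of KF3, the low values were Gria3 139, Gria4 87.6, Grm3 42.9, Gabra2 62.4 and Gabrg1 10.3 CPM. Low values in KF3 and KM3 fell mainly on AT-rich members. In the 24 h female contralateral library of QF1, the low values were Grin2c 13.8, Grid1 44.7, Gabrg1 12.5 and Gabrd 48.9 CPM. In the naive male contralateral library of CM1, the low values were Grin2d 7.76, Grm4 19.5 and Gabbr2 323 CPM and the high value was Grin3a 39.7 CPM. In the 24 h male ipsilateral library of RM2, the low value was Grik3 92.9 CPM and the high values were Gria1 474 and Gabra5 59.5 CPM. In the 24 h female ipsilateral library of QF1, the low values were Grik1 6.51, Grm3 26.4 and Gabra4 50 CPM. In the 72 h male contralateral library of PM2, the low values were Grin2c 39.3 and Grin2d 17.1 CPM.

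Single members stood out in 8 more libraries. Low values were Gria1 at 260.0 CPM in 24 h female contralateral RF1, Grin2a at 108 CPM in naive male contralateral KM2, Grik1 at 9.6 CPM in 72 h female contralateral SF3 and Gabbr2 at 369 CPM in naive female ipsilateral GF2. High values were Gria2 at 906 CPM in 24 h female contralateral DF2, Gria3 at 338 CPM in 24 h male contralateral QM1, Grik1 at 13.8 CPM in 72 h male ipsilateral PM2 and Gabrd at 108 CPM in 72 h female contralateral TF1.

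The effect of injury differed between the times on the ipsilateral side for 9 members (log2, 72 h against 24 h): Grin1 -0.75, Grik4 -0.40, Grik5 -0.47, Grid1 -0.24, Grm2 -0.68, Grm3 0.83, Gabra2 0.53, Gabra3 -0.39 and Gabbr2 -0.45. The effect at 24 h differed between the sides, as the ipsilateral minus contralateral log2 difference in injured mice less that in naive mice, for 21 members. Among glutamate receptors these were Gria2 -0.50, Gria3 -0.74, Gria4 -0.49, Grin2a -0.34, Grin2c -0.89, Grin2d -0.38, Grin3a -0.75, Grik1 -0.31, Grik2 -0.44, Grik4 0.41, Grid1 -0.25, Grm2 -1.02, Grm3 -0.84, Grm5 -0.40 and Grm7 -0.25. Among GABA receptors they were Gabra2 -0.44, Gabra4 -0.54, Gabrb2 -0.42, Gabrg1 -0.94, Gabrd -1.24 and Gabbr1 -0.22. At 72 h the same quantity was called for 26 members, all below 0. The glutamate receptors were Gria2 -0.61, Gria3 -0.92, Gria4 -0.88, Grin1 -0.63, Grin2a -0.69, Grin2b -0.60, Grin2c -1.0, Grin2d -0.57, Grin3a -0.50, Grik1 -0.49, Grik2 -0.59, Grid1 -0.60, Grm2 -1.47, Grm4 -0.41, Grm5 -0.60, Grm7 -0.59 and Grm8 -0.77. The GABA receptors were Gabra3 -0.75, Gabra4 -0.81, Gabra5 -0.40, Gabrb2 -0.86, Gabrg1 -0.70, Gabrg3 -0.39, Gabrd -1.63, Gabbr1 -0.42 and Gabbr2 -0.54.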

How the results depend on the processing

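For ipsilateral cortex at 24 h, batch B alone called 0 members higher and 11 lower, and adding LF3 left 1 higher. There Gria2, Grm5 and Gabra2 had the opposite sign in batch B alone (0.21, 0.08 and 0.11). At 72 h, leaving out the batch term called 1 member higher and turned Gabrb1 to -0.53, and adding LF3 turned Gabbr1 to 0.11. For 72 h against 24 h, 1 member was higher in batch B alone, 11 were lower with the library GC slope as a covariate and 20 without the batch term, where Grik1 was -0.25. Adding LF3 made Gabbr1 0.43. For contralateral cortex at 24 h, batch A alone gave 0 higher and 1 lower, no batch term 1 higher, LF3 0 higher and 1 lower, and leaving out the libraries of largest GC slope 4 lower. At 72 h no batch term gave 1 higher and 3 lower.

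Leaving out 1 library in turn gave 1 to 3 higher and 15 to 21 lower members for ipsilateral 24 h, 0 to 0 higher and 15 to 19 lower for 72 h, and 1 to 3 higher and 4 to 9 lower for 72 h against 24 h. For contralateral 24 h it gave 2 to 3 higher and 1 to 5 lower, and 0 to 0 in both directions at 72 h. Among all genes, counts moved over 1.5 times without the batch term for ipsilateral 72 h (6489 lower, against 4317) and for 72 h against 24 h (5295 higher and 5396 lower, against 3527 and 2811). They did so for contralateral 24 h (440 higher, 750 lower) in batch A alone (74 and 128), with LF3 (151 and 237), with the GC slope (954 higher), without the libraries of largest slope (661 higher) and without the filter (457 lower). For contralateral 72 h (17 higher, 0 lower) they were 35 and 7 by DESeq2, 33 and 12 with the GC slope, 564 and 1346 without the batch term, 45 and 3 with LF3, 5 higher in batch B alone and 8 lower without the libraries of largest slope.

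Between sides, the fit with no replicate block (the animal) called 23 members lower and 3 higher at 24 h and 27 lower and 1 higher at 72 h, and 19 and 25 lower for the side differences, close to the paired counts. With LF3 there were 0 higher between sides at 72 h. Side differences called 2 higher at 24 h with the GC slope as a covariate or without the animals of largest slope, and 1 higher at 72 h without them.

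In batch B alone, Gria1 over Gria2 gave -0.19 at ipsilateral 24 h, 0.07 at 72 h and -0.56 at contralateral 24 h, Gabbr2 over Gabbr1 gave 0.01 at ipsilateral 72 h, and Grin2b over Grin2a gave -0.06 at contralateral 72 h. The causes were not tested. Alternatives on GC slope, and those without PF1 between sides and by sex, were added after seeing the data.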

Other observations

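The ipsilateral 72 h library labelled PM1, which belongs to no group, lay inside the range of the 14 other ipsilateral 72 h libraries for 29 of 33 members. Grin2c was below that range at 14.4 CPM, and Grin3a and Grm8 were above it at 32.3 and 14.7 CPM. Gabrg3 was at 32.8 CPM, level with the highest of the others to 3 digits (CPM here scaled over all 88 libraries). In the ipsilateral library of LF3, Gabrd stood at 7.41 CPM and Grid1 at 16.9 CPM, below the other 72 h libraries, and Gabbr1 stood at 2107 CPM, above them.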
